A study of Mus musculus with 6 samples.

Results

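Chemokines are small secreted or membrane-held proteins that steer leukocytes along gradients through G protein-coupled receptors. The members described here are the mouse CXC ligands Cxcl1, Cxcl2, Cxcl5, Cxcl9, Cxcl10, Cxcl11, Cxcl12, Cxcl13 and Cxcl16, together with the CX3C ligand Cx3cl1. They were chosen by name, and all 10 were found among the 54532 genes of the deposited table. The bulk RNA was from T cells collected after co-culture with ovarian cancer cells. Cx3cl1, Cxcl10 and Cxcl16 transcripts were lower after co-culture with cisplatin-treated than with buffer-treated cancer cells. Tumour cell markers were lower in the same libraries, so these transcripts cannot be assigned to T cells. Mean levels fell from 6.13 to 1.95 FPKM for Cx3cl1, from 15.3 to 8.72 FPKM for Cxcl10 and from 12.2 to 8.16 FPKM for Cxcl16. Cxcl11 and Cxcl12, both below 1.2 FPKM in every library, were lower as well by the test on reads. No member was higher in the cisplatin libraries at an adjusted p-value under 0.05.

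The members fall into 4 groups by receptor and form. Cxcl1, Cxcl2 and Cxcl5 act on CXCR2 and draw neutrophils, and their genes are classical targets of NF-kB and IL-17 signalling. Cxcl9, Cxcl10 and Cxcl11 are the interferon-induced ligands of CXCR3, the receptor of activated effector T cells. Cxcl12 binds CXCR4 and ACKR3 and is known from stromal cells, and Cxcl13 binds CXCR5 and guides B cells to follicles. Cxcl16 and Cx3cl1 are made as transmembrane proteins with a chemokine head on a mucin stalk, are shed by ADAM proteases, and bind CXCR6 and CX3CR1, respectively.

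The data are bulk poly-A RNA sequencing of mouse T cells after co-culture, in 6 libraries. Splenic T cells of C57BL/6 mice aged 6 to 8 weeks were isolated with a pan T-cell kit, kept in IL-2 at 10 ng/mL and pre-activated for 72 h with anti-CD3/28 beads. They were then co-cultured with ID8, a mouse ovarian cancer cell line. The methods of the study state that T cells were collected after co-culture, and the sample titles name T cells. How far they were separated from ID8 cells is not given in the sources used here. The 3 cisplatin libraries (CIS) come from co-cultures with ID8 cells pretreated with 40 µM cisplatin, and the 3 control libraries (WT) from co-cultures with ID8 cells that received PBS. The control label therefore denotes buffer treatment and not a genotype, and T cells of both groups had met tumour cells. The labels do not say that the libraries came from separate mice or cultures, so p-values measure the spread between these libraries, which may be technical.

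Levels are FPKM, fragments scaled by gene length and by a total for each library. This unit allows genes of different length to be compared. Whole reads could be rebuilt from the FPKM, and 30606569 to 32169496 reads lay on genes in each library. Divided by the reads on genes, the total behind the FPKM came to 1.049, 1.030 and 1.035 for cisplatin libraries 1 to 3. For control libraries 1 to 3 it came to 0.981, 0.976 and 0.982. Relative to scaling by reads on genes, the FPKM scale thus set the cisplatin libraries lower than the controls. The part of this shift in the differences between limma and voom was not tested. T-cell identity genes were present in all libraries, with summed levels of 3278 to 3351 FPKM in the cisplatin libraries and 2082 to 2212 FPKM in the controls. The summed level of 32 ID8 tumour cell markers, of which Col3a1 was at 0 throughout, was 280.0 to 289.3 FPKM in the cisplatin libraries and 1841 to 1938 FPKM in the controls. The 10 B-cell genes, all of them higher in the cisplatin libraries by limma on the FPKM scale, summed to 3638 to 3711 FPKM against 1700.0 to 1787 FPKM. The libraries thus held B-cell RNA besides that of T cells and tumour cells. In bulk libraries, fewer cells of a type and less RNA per cell cannot be told apart.

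Differences are log2 fold changes of cisplatin over control. The first test was limma on log2(FPKM + 0.1), over the 15874 genes whose mean reached 0.5 FPKM, a scale that understates the change of low genes. Cxcl1, Cxcl11 and Cxcl12 were under that minimum and were tested with limma voom on the rebuilt reads, over 18541 genes with at least 10 reads in at least 3 libraries. A gene was called when its Benjamini-Hochberg adjusted p-value was under 0.05 and its absolute log2 fold change at least 1. In both groups Cxcl10 had the highest mean level of the members, and Cxcl16 and Cx3cl1 followed. In the controls each of these 3 was separated from the next gene in the order, without overlap of the libraries. Cxcl9, Cxcl11, Cxcl5, Cxcl12, Cxcl1 and Cxcl2 came next in the controls, each overlapping its neighbour. In the cisplatin libraries Cxcl10 and Cxcl16 overlapped each other, and Cxcl5 took the fourth place ahead of Cxcl9, Cxcl2 and Cxcl1, each overlapping its neighbour. Cxcl11 and Cxcl12 lay below all of these and overlapped each other. Cxcl13 had no read in any library.

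**Figure D1:**
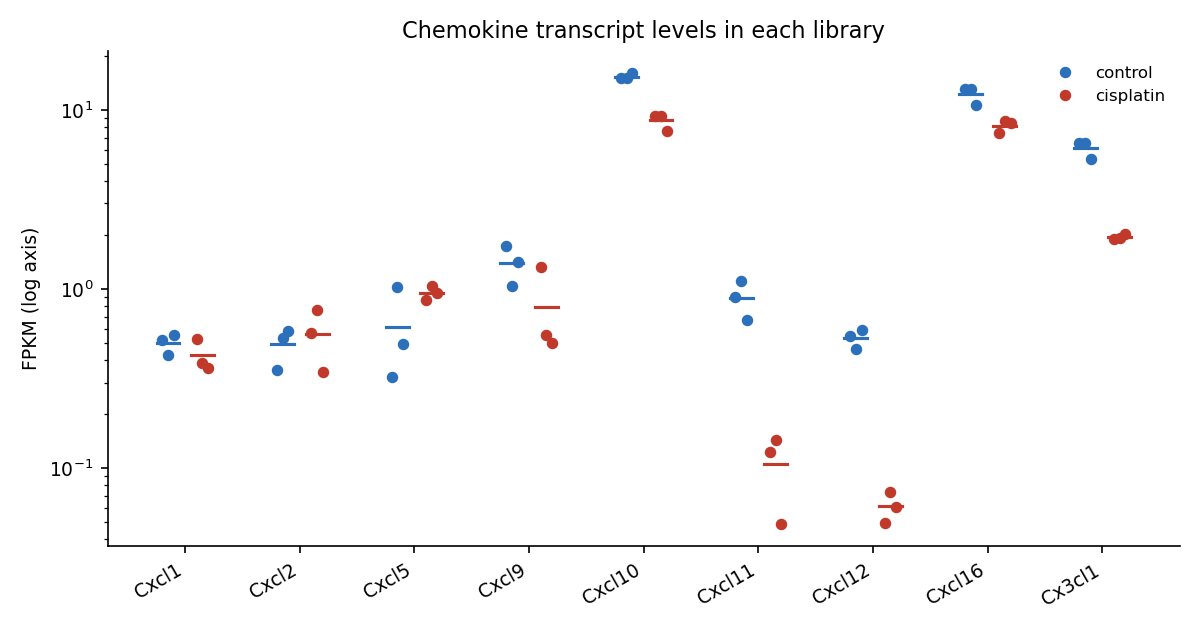
Levels of the 9 chemokines with reads, in FPKM on a log axis, with 1 point per library (3 control, blue; 3 cisplatin, red) and a bar at each group mean. The control points of Cxcl10, Cxcl11, Cxcl12, Cxcl16 and Cx3cl1 all lie above the cisplatin points, whereas the points of Cxcl1, Cxcl2, Cxcl5 and Cxcl9 overlap.

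RefSeq promoter windows (GRCm38.p6) were at hand for 7 of the 10 members, Cxcl1, Cxcl2, Cxcl9, Cxcl10, Cxcl12, Cxcl13 and Cx3cl1. The 250 bases before each start site were compared for every pair of these genes, 21 in all, by the longest stretch of letters that both hold. The longest, of 14 bases, was shared by Cxcl1 and Cxcl2, which are shown for that reason with the stretch in capitals, in the first 200 of those bases, written 5′ to 3′ on the gene's strand:
Cxcl1, chr5:90890995-90891194, plus strand: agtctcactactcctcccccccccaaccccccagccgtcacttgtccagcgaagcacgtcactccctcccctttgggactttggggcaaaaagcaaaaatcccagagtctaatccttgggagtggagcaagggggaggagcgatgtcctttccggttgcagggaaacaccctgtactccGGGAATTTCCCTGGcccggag
Cxcl2, chr5:90903649-90903848, plus strand: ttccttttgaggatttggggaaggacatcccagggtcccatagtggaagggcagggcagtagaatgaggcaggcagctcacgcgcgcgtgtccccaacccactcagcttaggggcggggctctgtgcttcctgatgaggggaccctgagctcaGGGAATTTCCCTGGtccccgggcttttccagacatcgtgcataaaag

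The stretch started at position -71 in Cxcl1 and -97 in Cxcl2, counted from the start site. Of all 32851 promoter windows, searched on both strands, 2 held it (0.00609%), those of Cxcl1 and Cxcl2. Cxcl5, Cxcl11 and Cxcl16 were not among the windows searched. The neighbouring interferon-induced genes Cxcl9 and Cxcl10 shared at most 11 bases, a stretch that 248 windows (0.755%) held, and the other pairs shared at most 10. The windows of Cxcl1 and Cxcl2 had 59.2% and 60.0% G and C, those of Cxcl9 and Cxcl10 44.4% and 48.0%, and the median over all windows was 52.4%. These are letters of the reference and no measure of binding in these cells.

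Of the CXCR3 ligands, Cxcl10 (ENSMUSG00000034855, chr5:92346638-92348889, GRCm38, minus strand) was the most abundant. Its levels were 15.0, 15.0 and 16.0 FPKM in control libraries 1 to 3 and 9.26, 9.27 and 7.63 FPKM in cisplatin libraries 1 to 3. Every control library lay above every cisplatin library. The group means were 15.3 ± 0.571 FPKM (SD, n = 3) and 8.72 ± 0.944 FPKM (SD, n = 3), on 1013 to 1105 and 557 to 692 reads. It changed by -0.81 on the log2 scale (SE 0.08), with an adjusted p of 2.1e-04 by limma, so Cxcl10 fell, although by less than the 2-fold needed for a call. In the annotation, 133 of its 2252 exon bases (5.91%) are shared with Art3 on the opposite strand, which was at 0.107 FPKM in the cisplatin libraries and 0.0473 FPKM in the controls.

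Cxcl11 (ENSMUSG00000060183, chr5:92359544-92365485, minus strand) is annotated as a polymorphic pseudogene, and C57BL/6 mice are known to carry a frameshift in it that prevents the protein. Its transcript was nevertheless counted, at 0.904, 1.11 and 0.670 FPKM in the controls and 0.122, 0.143 and 0.0488 FPKM in the cisplatin libraries. The groups did not overlap, and the lowest control was more than 4 times the highest cisplatin library. The reads behind these levels numbered 78 to 126 in the controls and 6 to 18 in the cisplatin libraries. By limma voom the log2 fold change was -3.06 (SE 0.48, 95% interval -4.06 to -2.06), with an adjusted p of 8.8e-06. On the opposite strand, the pseudogene Gm2673 shares 1582 of the 3794 exon bases of Cxcl11 (41.7%) and was at 0 FPKM in every library.

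Cxcl9 (ENSMUSG00000029417, chr5:92321347-92328079, minus strand) varied more between libraries of one group. It was at 1.73, 1.04 and 1.40 FPKM in the controls and at 1.32, 0.550 and 0.501 FPKM in the cisplatin libraries. Cisplatin library 1 lay within the control range, and the other cisplatin libraries lay below it. The log2 fold change was -0.83 (SE 0.38, 95% interval -1.74 to 0.08), with an adjusted p of 0.10 by limma, and -0.85 with an adjusted p of 0.019 by limma voom. Leaving out cisplatin library 1 gave -1.23 with an adjusted p of 0.012 by limma. By voom, leaving out cisplatin library 2, cisplatin library 3 or control library 1 gave adjusted p-values of 0.11, 0.13 and 0.089.

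The 3 CXCR3 ligands lie side by side within 44.139 kb of chromosome 5. Within a library, the ratio of Cxcl10 to Cxcl11 does not depend on the scaling between libraries. It was 16.6, 13.5 and 23.9 in the controls and 75.8, 64.8 and 156 in the cisplatin libraries, so that Cxcl11 was lower relative to Cxcl10 in every cisplatin library. The difference of the log2 ratios was 2.39 (two-sided exact permutation test, p = 0.1, the smallest that 3 against 3 libraries can give, and 0.2 after Benjamini-Hochberg adjustment over 8 pairs). With 0.1 FPKM added to both levels before the ratio, the difference was 1.47. The log2 ratio of Cxcl9 to Cxcl10 was -3.49 ± 0.370 (SD, n = 3) in the controls and -3.60 ± 0.692 (SD, n = 3) in the cisplatin libraries, with overlapping libraries (exact permutation p = 0.8).

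Of the neutrophil attractants, Cxcl5 (ENSMUSG00000029371, chr5:90759360-90761624, plus strand) had the highest mean in both groups. It was at 0.322, 1.02 and 0.490 FPKM in the controls and at 0.862, 1.04 and 0.944 FPKM in the cisplatin libraries, on 18 to 57 and 52 to 64 reads. Control library 2 reached the level of the cisplatin libraries, and the other controls lay below all of them. The log2 fold change was 0.68 (SE 0.38, 95% interval -0.24 to 1.59), with an adjusted p of 0.18 by limma. By voom it was 0.87 with an adjusted p of 0.054. Without control library 2 the limma value was 1.07 with an adjusted p of 0.024 and the voom value 1.31 with an adjusted p of 0.017, so whether Cxcl5 passed the threshold turned on that library. Without control library 1 the values were lower, 0.36 by limma and 0.50 by voom.

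Cxcl2 (ENSMUSG00000058427, chr5:90903871-90905938, plus strand) was at 0.354, 0.532 and 0.583 FPKM in the controls and at 0.568, 0.759 and 0.343 FPKM in the cisplatin libraries. The groups overlapped over most of their range, on 22 to 52 reads a library. The log2 fold change was 0.12 (SE 0.37, 95% interval -0.76 to 1.01, limma adjusted p = 0.80), and its sign turned to -0.10 without cisplatin library 2 and to -0.05 without control library 1. Cxcl1 (ENSMUSG00000029380, chr5:90891241-90893115, plus strand) was at 0.515, 0.427 and 0.556 FPKM in the controls and 0.527, 0.386 and 0.362 FPKM in the cisplatin libraries. Its groups overlapped too, and the log2 fold change by limma voom was -0.16 (SE 0.41, 95% interval -1.01 to 0.69, adjusted p = 0.76). These intervals span changes of about 2-fold at one end or the other, so a difference of that size could not be told from 0 at this depth, 22 to 32 reads a library for Cxcl1.

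Cxcl5, Cxcl1 and Cxcl2 lie within 146.579 kb of chromosome 5, on the plus strand. The log2 ratio of Cxcl1 to Cxcl2 differed by -0.39 between the groups (exact permutation p = 0.5) and that of Cxcl1 to Cxcl5 by -1.04 (exact permutation p = 0.2), with overlapping libraries in both cases. Without 1 library these differences ranged from -0.59 to -0.07 and from -1.60 to -0.64. The ratio of Cxcl1 to Cxcl10, a neutrophil attractant against an interferon-induced ligand, was 0.0344, 0.0285 and 0.0348 in the controls and 0.0569, 0.0417 and 0.0474 in the cisplatin libraries. The cisplatin libraries lay above the controls without overlap, by 0.58 on the log2 scale (exact permutation p = 0.1, adjusted over the 8 pairs 0.2).

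**Figure D2:**
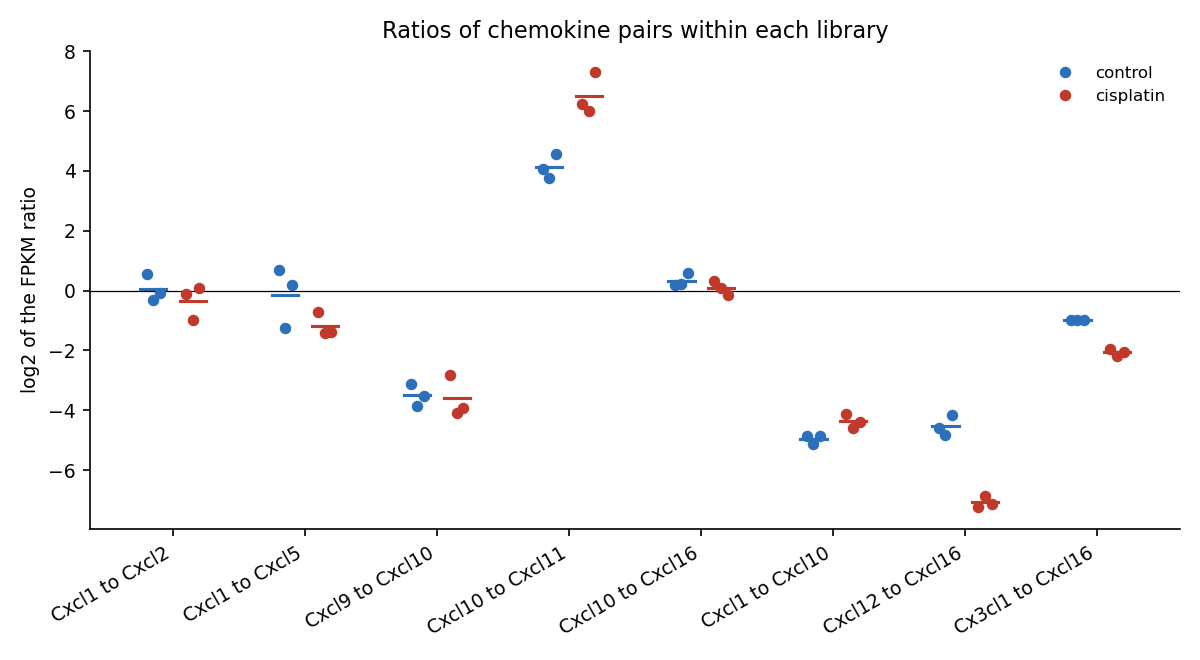
Log2 ratio of the FPKM of 8 pairs of chemokines in each library (3 control, blue; 3 cisplatin, red), with a bar at each group mean. The ratios of Cxcl10 to Cxcl11 and of Cxcl1 to Cxcl10 are higher in every cisplatin library and those of Cxcl12 to Cxcl16 and of Cx3cl1 to Cxcl16 lower, whereas the other 4 pairs overlap.

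Cx3cl1 (ENSMUSG00000031778, chr8:94772009-94782427, plus strand), the membrane-held ligand known as fractalkine, had the lowest adjusted p-value of the members in both tests. Its levels were 6.53, 6.54 and 5.33 FPKM in the controls and 1.91, 1.92 and 2.02 FPKM in the cisplatin libraries. The lowest control was more than 2 times the highest cisplatin library. The means were 6.13 ± 0.695 FPKM (SD, n = 3) and 1.95 ± 0.0594 FPKM (SD, n = 3), on 643 to 771 and 243 to 257 reads. Cx3cl1 changed by -1.60 on the log2 scale (SE 0.10, 95% interval -1.84 to -1.36), with an adjusted p of 1.8e-05 by limma and 2.1e-10 by voom, past the threshold for a call in both tests.

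Cxcl16 (ENSMUSG00000018920, chr11:70453983-70459984, minus strand) fell less. It was at 13.0, 13.0 and 10.6 FPKM in the controls and at 7.45, 8.63 and 8.40 FPKM in the cisplatin libraries. All controls lay above all cisplatin libraries, and the means were 12.2 ± 1.39 FPKM (SD, n = 3) and 8.16 ± 0.627 FPKM (SD, n = 3). Its change was -0.57 on the log2 scale (SE 0.10), with an adjusted p of 0.0026 by limma, below the 2-fold needed for a call. Of the 3021 exon bases of Cxcl16, 552 (18.3%) are shared with Zmynd15 on the opposite strand. Zmynd15 was at 17.9 ± 1.10 FPKM (SD, n = 3) in the controls and 5.43 ± 0.865 FPKM (SD, n = 3) in the cisplatin libraries, and how reads were assigned to strands is not given in the sources used here. The part of Zmynd15 reads in the Cxcl16 level was not tested.

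Both are shed ligands, and they were compared within each library. The ratio of Cx3cl1 to Cxcl16 was 0.501, 0.504 and 0.503 in the controls and 0.257, 0.222 and 0.240 in the cisplatin libraries. The controls were nearly identical and lay above every cisplatin library, by 1.07 on the log2 scale (exact permutation p = 0.1, adjusted over the 8 pairs 0.2, past no threshold). The limit given for the Cxcl16 level holds for this ratio too. The ratio of Cxcl10 to Cxcl16 had overlapping libraries and a log2 difference of -0.24 (exact permutation p = 0.4).

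Cxcl12 (ENSMUSG00000061353, chr6:117168535-117181367, plus strand) had the lowest mean of the members with reads in the cisplatin libraries, where it overlapped Cxcl11. It was at 0.546, 0.461 and 0.590 FPKM in the controls and at 0.0491, 0.0738 and 0.0604 FPKM in the cisplatin libraries. The groups were far apart, with 113 to 148 reads in the controls against 13 to 20. By limma voom the log2 fold change was -3.01 (SE 0.39, 95% interval -3.82 to -2.20), with an adjusted p of 5.3e-07. Against Cxcl16 within a library, the log2 ratio was lower by 2.56 in the cisplatin libraries without overlap (exact permutation p = 0.1, adjusted 0.2). With 0.1 FPKM added to both levels before the ratio, the difference was -1.40. Cxcl13 (ENSMUSG00000023078, chr5:95956951-95961068, plus strand) was listed at 0 in all 6 libraries, and a count of 0 allows up to 3 reads, or 0.0870 FPKM in the library with the largest step.

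Counted over the list, limma tested 6 members, of which 3 (Cx3cl1, Cxcl10 and Cxcl16) were lower at an adjusted p under 0.05, 0 were higher and 3 did not pass. Among all genes tested by limma, 29.0% were lower and 27.5% higher by the same rule. With the 2-fold minimum, 1 member (Cx3cl1) was called lower and 0 higher, beside 12.8% and 4.11% of all genes. Limma voom tested 9 members, of which 6 were lower, beside 25.6% of all genes, and 3 (Cx3cl1, Cxcl11 and Cxcl12) were called lower, beside 13.1%. Before adjustment, the p-value of Cxcl5, which was higher in the cisplatin libraries, was 0.12 by limma and 0.031 by voom. The share of all genes under an unadjusted 0.05 was not counted. All 3 controls lay above all 3 cisplatin libraries for 5 of the 9 members with reads, and the same held for 31.0% of the genes tested by voom. The members tested had a median log2 fold change of -0.69 by limma and -0.73 by voom, beside 0.03 and 0.10 over all genes tested.

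**Figure D3:**
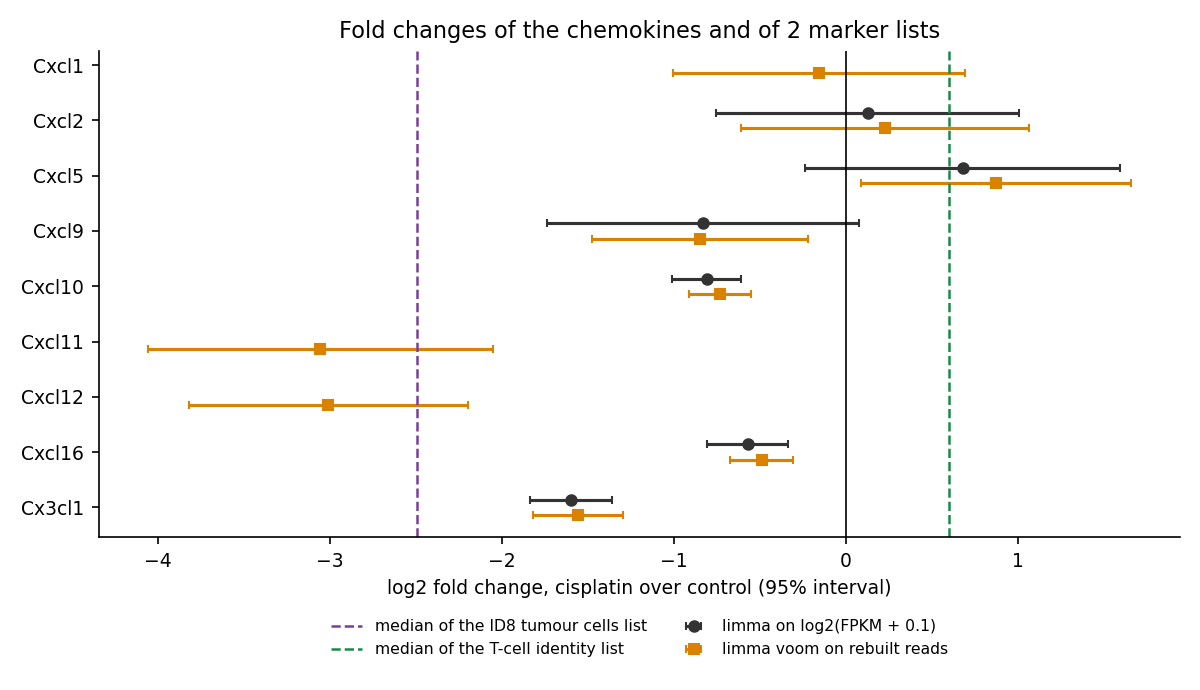
Log2 fold changes of the chemokines (cisplatin over control) with 95% intervals, by limma on log2(FPKM + 0.1) (black circles, 6 members above the FPKM minimum) and by limma voom on rebuilt reads (orange squares, 9 members). The intervals of Cxcl10, Cxcl11, Cxcl12, Cxcl16 and Cx3cl1 lie below 0 in each fit shown for them, while that of Cxcl9 lies below 0 and that of Cxcl5 above 0 by voom only. Dashed lines mark the limma medians of the ID8 tumour cell list at -2.50 and of the T-cell identity list at 0.60.

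The members that fell did so beside a large shift in the markers of the cultured cells. Of the 22 ID8 markers tested by limma, 21 were lower and 1, Epcam, did not pass, with a median of -2.50. Keratin 19 (Krt19) fell from 646 to 52.9 FPKM and mesothelin (Msln) from 148 to 35.2 FPKM. Of the 26 T-cell identity genes, 25 were higher and Themis was lower, with a median of 0.60. By voom, Cxcl11 and Cxcl12 fell by more than the ID8 median of either test. Their voom intervals (-4.06 to -2.06 and -3.82 to -2.20) included the voom ID8 median of -2.25. By limma with no filter on low values, Cxcl11 changed by -2.29 and Cxcl12 by -1.97. Both were smaller than the limma ID8 median of -2.50, on a scale that understates low genes. Whether Cxcl11 and Cxcl12 fell by more than the ID8 markers thus depended on the test. The fall of Cx3cl1 was smaller than the ID8 medians, and those of Cxcl10 and Cxcl16 were smaller still. With every library scaled to the mean of its T-cell genes (T-cell scaling), Cx3cl1 changed by -2.14, Cxcl10 by -1.35, Cxcl9 by -1.37 and Cxcl16 by -1.11, all with adjusted p-values under 0.05 by limma. Cxcl5 went from 0.68 to 0.14 (adjusted p = 0.76) and Cxcl2 from 0.12 to -0.42 (adjusted p = 0.35). That scaling moved the median of all genes from 0.03 to -0.51. The part of the tumour cell share in the chemokine differences was not tested.

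Markers of other sources of chemokines also differed between the groups. Monocyte and macrophage genes summed to 130.1 to 149.7 FPKM in the cisplatin libraries and 66.3 to 70.8 FPKM in the controls. Of 11 tested by limma, 9 were higher, among them C1qb (2.75 on the log2 scale) and C1qa (2.46). Cd14 was lower (-0.47, limma adjusted p = 0.0038) and Cd68 did not pass. With T-cell scaling, 7 of the 11 were higher and 2 lower. Dendritic cell genes summed to 456 to 476 FPKM against 305 to 334 FPKM, with 5 of 6 tested higher, Zbtb46 called lower (-1.04) and Cd209a at 0 throughout. Under T-cell scaling 1 of the 6 dendritic genes was higher and 1 lower, and of the 10 B-cell genes 5 were higher and 3 lower. Neutrophil genes were near the floor, at 3.28 to 4.58 FPKM summed against 0.506 to 1.55 FPKM, with Ly6g at 0 in every cisplatin library. Of 10 listed, limma tested 2, Elane (from 0.156 to 1.34 FPKM) and Mpo (from 0.148 to 1.12 FPKM), and both were called higher. Both reached the 0.5 FPKM minimum only through the cisplatin libraries. The filter thus favoured this direction, and the 2 calls do not describe the list. Endothelial and stromal genes, the textbook neighbours of Cxcl12, summed to 42.8 to 45.9 FPKM in the cisplatin libraries and 115.7 to 118.7 FPKM in the controls. Of the 5 tested, 4 were lower, led by decorin (Dcn, -2.37) and podoplanin (Pdpn, -2.21), and the endothelial gene Pecam1 was higher (0.62). By voom, 4 of 9 were lower and 2 higher, with a median of -0.41, while the endothelial gene Cdh5 and the fibroblast receptors Pdgfra and Pdgfrb were below 0.35 FPKM. The part of these cells in the levels of the members was not tested.

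Other CXC ligands, listed together with the XC ligand Xcl1, split by direction. Of 7 on the list, limma tested 5, of which 2 were called lower, 2 called higher and 1 did not pass. Cxcl17, a mucosal chemokine, was at 31.2, 28.3 and 36.9 FPKM in the controls and 4.43, 3.65 and 4.74 FPKM in the cisplatin libraries. Its level was thus above that of every member in the controls, and it fell by 2.88 on the log2 scale (SE 0.13, limma adjusted p = 4.0e-06). Ppbp, a platelet CXCR2 ligand, was at 41.0, 43.5 and 54.6 FPKM in the controls and 23.7, 22.7 and 20.8 FPKM in the cisplatin libraries (log2 fold change -1.04, limma adjusted p = 2.6e-04).

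Cxcl3, a CXCR2 ligand whose gene lies between Cxcl5 and Cxcl1, went the other way. It was at 0.381, 0.267 and 0.466 FPKM in the controls and 1.21, 1.06 and 1.23 FPKM in the cisplatin libraries, on 28 to 50 and 123 to 140 reads. The groups did not overlap, and the log2 fold change was 1.45 (SE 0.26, limma adjusted p = 0.0029). Xcl1, a ligand made by activated T and NK cells that attracts cross-presenting dendritic cells, was at 1.78, 1.21 and 1.99 FPKM in the controls and 4.73, 6.87 and 6.96 FPKM in the cisplatin libraries (log2 fold change 1.84, limma adjusted p = 4.7e-04). Pf4, a platelet chemokine, was at 26.7, 32.6 and 39.8 FPKM in the controls and 39.2, 45.2 and 37.6 FPKM in the cisplatin libraries, with a log2 fold change of 0.31 and an adjusted p of 0.11 by limma, and 0.40 with an adjusted p of 0.0029 by voom. The directions of Cxcl17, Ppbp, Cxcl3 and Xcl1 held under each of the 5 other scalings tried, although Cxcl3 was under 2-fold at 0.91 with T-cell scaling and Ppbp at -0.96 by voom and -0.97 with quantile normalization, whereas that of Pf4 turned to -0.23 under T-cell scaling. Cxcl14 had no read, and Cxcl15 had 2 reads in 1 control library.

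**Figure D4:**
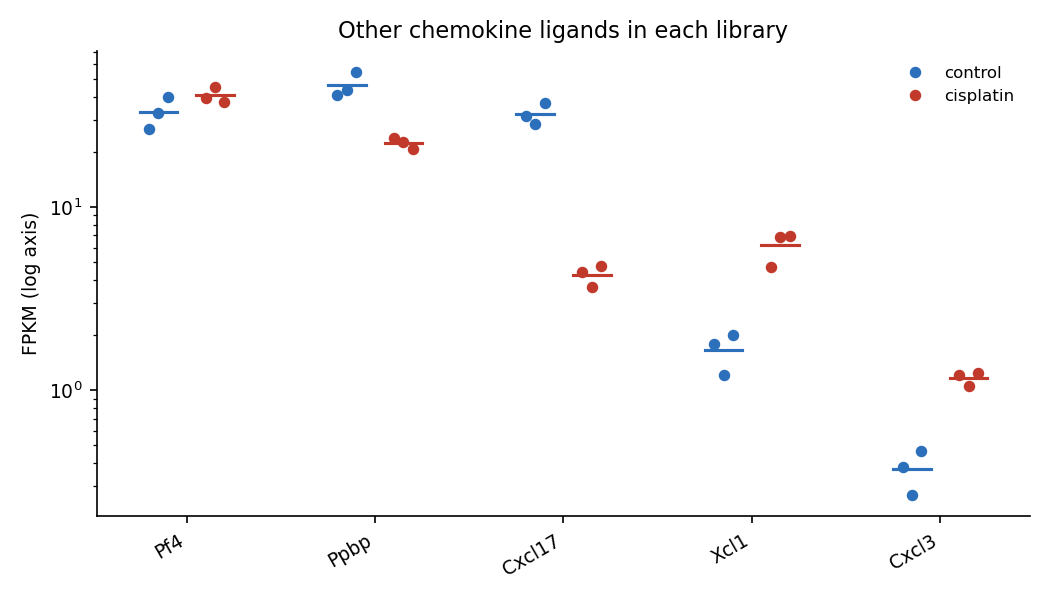
Levels of 5 further chemokine ligands in FPKM on a log axis, with 1 point per library (3 control, blue; 3 cisplatin, red) and a bar at each group mean. Ppbp and Cxcl17 are lower and Xcl1 and Cxcl3 higher in every cisplatin library, and the groups of Pf4 overlap.

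Among the receptors, Cxcr3 was higher while its ligands Cxcl10 and Cxcl11 were lower, and Cx3cr1 was higher by voom while its ligand Cx3cl1 was lower. Cxcr3 was at 29.6, 27.5 and 28.8 FPKM in the controls and 58.2, 56.1 and 58.1 FPKM in the cisplatin libraries. The log2 fold change of Cxcr3 was 1.003 (SE 0.04, limma adjusted p = 2.0e-06), and 0.46 with a limma adjusted p of 1.0e-04 under T-cell scaling. Cxcr3 was thus higher in both, but under 2-fold with T-cell scaling. Of the 9 receptors listed, limma tested 5, of which 1 was called higher, Cxcr6 was lower without reaching 2-fold, and 3 did not pass. Cxcr6, the receptor of Cxcl16, was at 17.5 ± 0.977 FPKM (SD, n = 3) in the controls and 15.7 ± 0.261 FPKM (SD, n = 3) in the cisplatin libraries (log2 fold change -0.16, limma adjusted p = 0.033), and by voom it was -0.07 with an adjusted p of 0.41.

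Cxcr4, the receptor of Cxcl12, was at 16.2 ± 0.554 FPKM (SD, n = 3) in the controls and 17.2 ± 0.812 FPKM (SD, n = 3) in the cisplatin libraries (log2 fold change 0.08, limma adjusted p = 0.20). Cxcr5 was at 11.1 ± 0.479 FPKM (SD, n = 3) and 12.6 ± 0.886 FPKM (SD, n = 3), respectively (log2 fold change 0.17, limma adjusted p = 0.058, voom adjusted p = 0.0033), although its ligand Cxcl13 had no read. Cxcr1 was at 1.12 and 1.25 FPKM, with overlapping libraries (limma adjusted p = 0.80). Under T-cell scaling the signs of these receptors turned, to -0.46 for Cxcr4, -0.37 for Cxcr5 and -0.45 for Cxcr1. Cx3cr1, the receptor of Cx3cl1, was at 0.237, 0.0444 and 0.159 FPKM in the controls and 0.302, 0.301 and 0.418 FPKM in the cisplatin libraries, on 6 to 61 reads (voom log2 fold change 1.54, adjusted p = 0.0093). Ackr3 was at 0.320 and 0.494 FPKM with overlapping libraries (voom adjusted p = 0.12). Cxcr2, the receptor of Cxcl1, Cxcl2 and Cxcl5, had 6 reads in 1 control library and none elsewhere, and Ackr1 had at most 9 reads in a library.

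**Figure D5:**
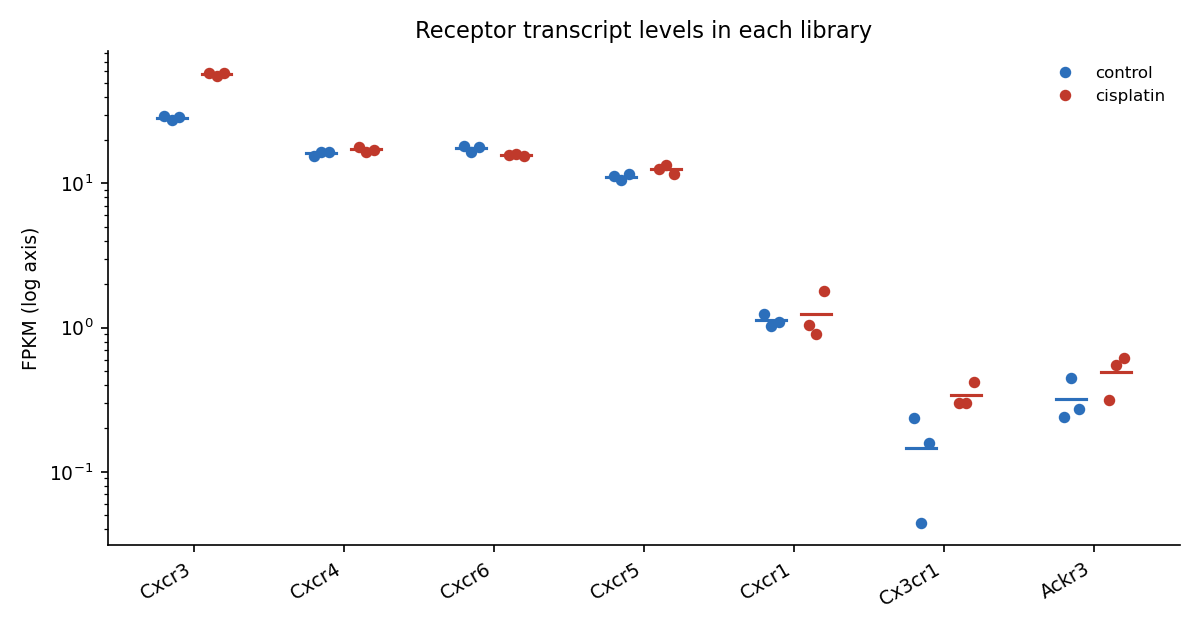
Levels of 7 chemokine receptors in FPKM on a log axis, with 1 point per library (3 control, blue; 3 cisplatin, red) and a bar at each group mean. Cxcr3, Cxcr5 and Cx3cr1 are higher in every cisplatin library and Cxcr6 lower, and the groups of Cxcr4, Cxcr1 and Ackr3 overlap. Cxcr2 and Ackr1 are left out because none of their libraries had 10 reads.

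Of the proteases that cut or shed the members, limma tested 4 of 6. Adam10, which sheds Cx3cl1 and Cxcl16 from the membrane, fell from 73.3 ± 1.38 to 37.3 ± 1.03 FPKM (SD, n = 3 each), by 0.97 on the log2 scale (SE 0.03, limma adjusted p = 1.2e-06), just under the 2-fold minimum. Adam17, the inducible sheddase, changed by -0.23 (limma adjusted p = 0.034), by -0.77 under T-cell scaling, and by -0.12 with an adjusted p of 0.18 under quantile normalization. Dpp4, which trims the CXCR3 ligands and Cxcl12 at the N terminus, was at 22.6 ± 0.363 FPKM in the controls and 31.8 ± 1.60 FPKM in the cisplatin libraries (SD, n = 3 each; log2 fold change 0.49, limma adjusted p = 1.1e-04), but at -0.05 with an adjusted p of 0.32 under T-cell scaling. Mmp8 did not pass. None of the 4 was called, but under T-cell scaling 1 was, Adam10, at -1.51 (limma adjusted p = 1.5e-07).

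Of 17 tested genes of the NF-kB, IL-17 and mRNA decay axis, which sets the level of Cxcl1, Cxcl2 and Cxcl5, 11 were higher, 3 lower and 3 did not pass by limma. The 2 called were Csf2, at 0.592 FPKM in the controls and 1.40 FPKM in the cisplatin libraries (log2 fold change 1.15, limma adjusted p = 0.011), and the receptor subunit Il17rc, which fell from 7.84 to 2.52 FPKM (log2 fold change -1.62, limma adjusted p = 1.2e-04). Under T-cell scaling, 10 of the 17 were lower and 0 higher, so the direction of this list depends on the scaling.

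The genes whose profile over the 6 libraries was most like that of a member were found by Euclidean distance of centred log2(FPKM + 0.1), among 7557 protein-coding genes outside the lists whose mean reached 5 FPKM. For Cxcl10 they were Prkaa1 (distance 0.127), Ehd4 and 4921524J17Rik. For Cxcl16 they were Cox15 (0.0995), Fam3a and Mtfr1l, and for Cx3cl1 they were Hs6st1 (0.138), Itga3 and Lzts2. The nearest genes of Cxcl9 (Immp1l, 0.673), Cxcl5 (Snapc5, 0.725) and Cxcl2 (Ubl5, 0.504) were several times farther away. Cxcl9, Cxcl5 and Cxcl2 lay below the 5 FPKM minimum of the candidates, on 18 to 157 reads a library. The part of counting error in their distances was not tested. The likeness is a description over 6 libraries of 2 groups, in which genes with a similar difference between the groups lie close.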

How the data were processed

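Bulk poly-A RNA sequencing libraries of T cells (3 per group) were grouped by the treatment given in the labels. The authors deposited gene-level FPKM. The submitters' processing notes name fastp, HISAT2 2.0.5, featureCounts 1.5.0-p3 and mm10, whereas the methods of the study name LifeScope for alignment and counting and DESeq2 on raw counts for differential expression. Which of these made the table, and whether counting used strand, is not given in the sources used here. The table held 0 columns of other samples. Its coordinates matched GENCODE M21 (GRCm38) for 53499 of 54409 shared genes, the 10 members included.

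FPKM times gene length came out as a whole multiple of 1 step per library for 100% of values above 0, within 0.1 read, which gave the rebuilt reads. Reads and the floor of 3 reads cover counting error only. Replicates of a group were not duplicates (chi-square per degree of freedom 5.11 to 5.99). Because the unit is FPKM and not counts, log2(FPKM + 0.1) was fitted with limma 3.58.1 in R 4.3.3 (lmFit, eBayes with trend), and limma voom on rebuilt reads was the alternative, used for members under 0.5 FPKM. The steps were tested on simulated data. The genes changed there were drawn only from those above a minimum of reads and of FPKM. Cxcl1, Cxcl2, Cxcl5, Cxcl11, Cxcl12 and Cxcl13 do not reach that minimum, so the simulation does not cover their levels. Tables and figures used python 3.11.15, numpy 2.4.6, pandas 2.3.3, scipy 1.17.1 and matplotlib 3.10.9. All members and any receptor were named, and up to 4 called genes of each other list with the largest change; further list genes were named after their values were seen. Members, lists and tests were chosen with earlier results of these data known, and the promoter comparison was chosen after the values were seen. Alternatives were pseudocounts of 1 and 0.01, other filters and scalings, no trend, no minimum fold change, a replicate block and leaving out each library. Results of 2 further gene lists are not reported here.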

Additional observations from a re-analysis of the deposited data

How the results depend on the processing

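Cx3cl1, Cxcl10, Cxcl16, Cxcl11 and Cxcl12 kept their direction and an adjusted p under 0.05 in every alternative run for them, with adjusted p-values of 4.4e-11 to 4.5e-04, 1.4e-07 to 0.0021, 2.6e-06 to 0.011, 4.1e-06 to 0.0036 and 5.3e-07 to 0.0032, and log2 fold changes without 1 library of -1.70 to -1.51, -0.86 to -0.64, -0.67 to -0.44, -3.34 to -2.60 and -3.15 to -2.88 over limma and voom (voom alone for the last 2). Adjusted p-values ranged from 0.0013 to 0.26 for Cxcl9, 0.017 to 0.79 for Cxcl5, 0.28 to 0.98 for Cxcl2 and 0.083 to 0.93 for Cxcl1. Cxcl2 turned to -0.42 under T-cell scaling (with and without the filter on low values), and without 1 library ranged from -0.10 to 0.38 by limma and from -0.03 to 0.53 by voom (limma: -0.10 without cisplatin replicate 2, -0.05 without control replicate 1). Cxcl9 to Cxcl10 ranged from -0.51 to 0.12 without 1 library (0.12 and 0.05 without cisplatin replicates 2 and 3, 0.08 without control replicate 1).

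Called members numbered 1, and 3 with no filter on low values, with voom, with voom and the replicate block, with a filter of at least 10 rebuilt reads in at least 3 libraries, or with no minimum fold change. They numbered 4 under T-cell scaling, 6 with that scaling and no filter, and 1 to 5 without 1 library (1 or 2 by limma, 3 to 5 by voom). Over all genes, calls rose too, to 3202 with no filter, 3551 with voom and 3685 with T-cell scaling. For unfiltered T-cell scaling, the 10-read filter, the voom block and voom without 1 library, all genes were not counted. Member counts there have no background beside them and are no result about the members. A mean of at least 5 FPKM left Cxcl10 and Cxcl16 only, so members were not counted there. All called genes numbered 2687 (2034 lower, 653 higher). They numbered 1762 with a pseudocount of 1 (311 higher), 1145 with a mean of at least 5 FPKM (903 lower, 242 higher), 8963 with no minimum fold change (4603 lower, 4360 higher), 3535 lower and 150 higher with T-cell scaling, and 1128 higher with voom. Without 1 library there were 2600 to 2692 in all, 1963 to 2045 lower and 579 to 692 higher. The share of lower calls was 75.7%, and 64.6% with quantile normalization (which moved the median of all genes to 0.16), 95.9% with T-cell scaling and 68.2% with voom. By list, with no minimum fold change and with T-cell scaling, called genes went from 4 to 4 and 3 for other ligands, from 1 to 2 and 0 for receptors, from 0 to 3 and 1 for proteases and from 2 to 14 and 1 for the NF-kB list. The cause of these moves was not tested, except that a filter changes the genes tested.

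No pairing by replicate number was visible: same-numbered libraries had correlations of their deviations of 0.023, -0.063 and -0.021. With 3 libraries per group, these values cannot exclude a shared preparation. With the replicate block, 2662 genes were called (2011 lower, 651 higher) and 1 member, Cx3cl1, by -1.60 with a limma adjusted p of 4.5e-04. The voom replicate block gave adjusted p-values of 6.4e-06 for Cxcl11 and 1.4e-06 for Cxcl12. Depth limits Cxcl1, Cxcl2 and Cxcl5, at 18 to 64 reads a library, and Cxcl13, without a read.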
